A study of Homo sapiens with 2 samples.

Results

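Isolated Rb peaks are LNCaP peaks whose summit lies 200 kb or more from every other LNCaP summit on the chromosome. Rb, the retinoblastoma tumour suppressor protein, was mapped in LNCaP and VCaP prostate cancer cells by ChIP-seq, the sequencing of DNA that is pulled down with the protein by an antibody. A peak is a region that the authors' peak caller listed for 1 of the lines. Of 21955 LNCaP peaks on chromosomes 1 to 22 and X, 1085 were isolated, or 4.94% (exact 95% interval 4.66 to 5.24), and 20870 were not. The members were chosen by the summit positions of the LNCaP list alone. The spacing is therefore a description, while pileup, length, fold enrichment and overlap with VCaP were not used in the choice. Distances to VCaP summits and to stretches without peaks are tied to the spacing and are descriptions as well.

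LNCaP was derived from a lymph node metastasis and VCaP from a vertebral metastasis, and both express the androgen receptor. Cells of both lines, of passages 10 to 15, spent 3 days in 5% charcoal-stripped serum, which is poor in steroids, before 4 h with 10 nM dihydrotestosterone (DHT), an androgen. All peaks described here thus come from DHT-treated cells, and cells without DHT, input chromatin and expression of marker genes were not analysed here. Each line has 1 library, of 3671482 tags in LNCaP and 8691938 in VCaP after the authors' filtering. Differences between isolated and other peaks are differences within 1 library, so they are given with intervals that cover counting error only and with no p-value.

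Rb has no sequence-specific DNA binding of its own and reaches chromatin through partner proteins, above all the E2F transcription factors at promoters of cell cycle and DNA replication genes. In its underphosphorylated form it represses those promoters, and phosphorylation by cyclin-dependent kinases releases it. Promoters of such genes lie mostly in gene-dense parts of the genome, and long stretches with few genes are common on chromosomes such as 4, 13, 18 and X, while chromosomes 17, 19 and 22 are rich in genes.

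The isolated peaks stood alone over long distances. Their nearest other LNCaP summit was a median of 301909 bp away (quartiles 242346 and 453426), against 22651 bp (7502 and 52180) for the other peaks. Among the isolated peaks, 225 were at least 500 kb and 47 at least 1 Mb from every other summit. The limit cut through a continuous range. A pair of peaks on chromosome 17, chr17:13304604-13304844 with a pileup of 5 tags and chr17:13504924-13505229 with 8 tags, were each other's nearest neighbours at 200208 bp and stood just inside it, followed by chr3:157614651-157615052 with 5 tags at 200896 bp. Just outside stood chr7:117313592-117313892 with 10 tags at 199923 bp, chr12:67663022-67663580 with 21 tags at 199870 bp and chr5:114305803-114306043 with 6 tags at 199612 bp.

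**Figure D1:**
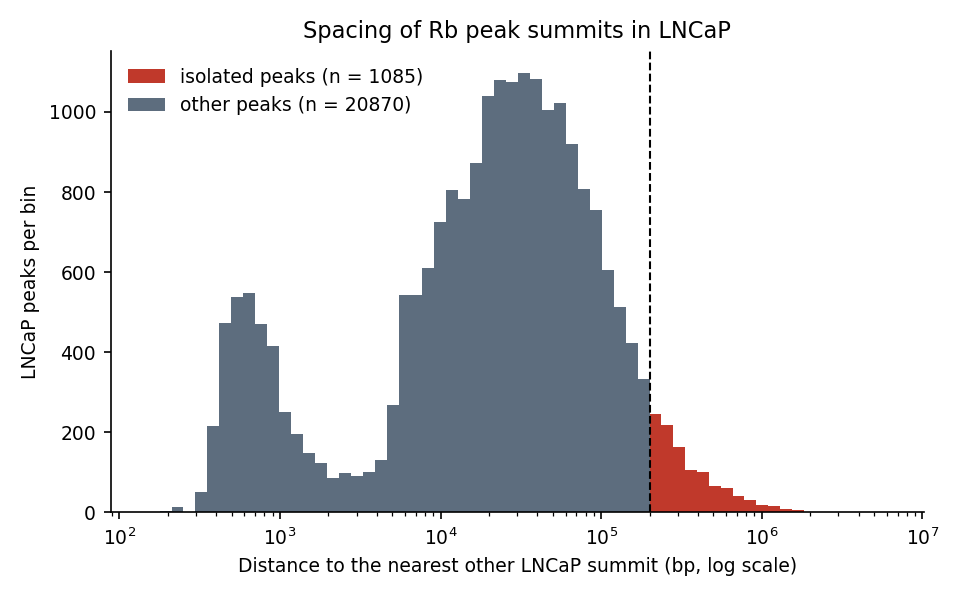
Number of LNCaP peaks per bin (vertical axis) against the distance to the nearest other LNCaP summit in bp (horizontal axis, log scale), with the 200 kb limit dashed. The 1085 isolated peaks form the right-hand tail of a range whose median over other peaks was 22651 bp.

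Many isolated peaks were neighbours of each other. They formed 681 runs along the chromosomes, a run being isolated peaks that follow one another with no other peak between them. In 431 runs the isolated peak was alone, and 654 isolated peaks belonged to runs of 2 or more. The longest run had 8 peaks on chromosome 2, between summits at 137181337 and 144694989, with pileups of 6 to 21 tags, and 2 of the 8 were overlapped by a VCaP peak. The next had 6 peaks each, on chromosome 9 over 5.36 Mb and on chromosome 14 over 3.14 Mb, with a median pileup of 7 tags in both, and VCaP peaks overlapped 1 of the 6 on chromosome 9 and none of the 6 on chromosome 14. The gaps of 200 kb or more between neighbouring LNCaP summits numbered 3371 of 21932 and made up 65.5% of the 2945 Mb between the first and last summits of the chromosomes. Isolated peaks have such a gap on each side, except for 7 that were the first or last of their chromosome and have 1 neighbour.

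Isolated peaks were low and short. The pileup, which counts the fragment-length tags over the summit, had a median of 8 tags in isolated peaks (quartiles 6 and 13, range 4 to 127) and 13 tags in other peaks (8 and 19, range 4 to 135). A pileup of 9 or less was found in 666 isolated peaks, 61.4% (58.4 to 64.3), against 31.9% (31.3 to 32.5) of other peaks and 33.4% of all LNCaP peaks. The high end was thinner as well, with 124 isolated peaks at 20 tags or more, 11.4% (9.60 to 13.5), against 24.9% (24.4 to 25.5) of other peaks and 24.3% of all. The intervals of these shares did not overlap. On 22 of 23 chromosomes the median pileup of isolated peaks lay below that of other peaks, and on chromosome X both were 10 tags.

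The length of isolated peaks had a median of 325 bp (95% interval of the median 311 to 336, quartiles 241 and 522), against 400 bp (395 to 404, quartiles 270 and 593) for other peaks. The shortest length in the list, 241 bp, equals the modelled fragment length in the authors' file header. It was the length of 302 isolated peaks, 27.8% (25.2 to 30.6), against 16.8% (16.3 to 17.3) of other peaks and 17.4% of all. The long end differed little. Peaks of 1 kb or more made up 2.67% (1.80 to 3.82) of isolated peaks, 2.32% (2.12 to 2.54) of other peaks and 2.34% of all. The order of the medians turned round among taller peaks. With peaks under 10 tags left out, a limit chosen after seeing the data, it was 569 bp (537 to 596) in isolated and 501 bp (496 to 506) in other peaks. Among peaks with at least 20 tags, the isolated ones were again the longer, with a median of 724.5 bp (682 to 773) against 631 bp (624 to 640) for other peaks.

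**Figure D2:**
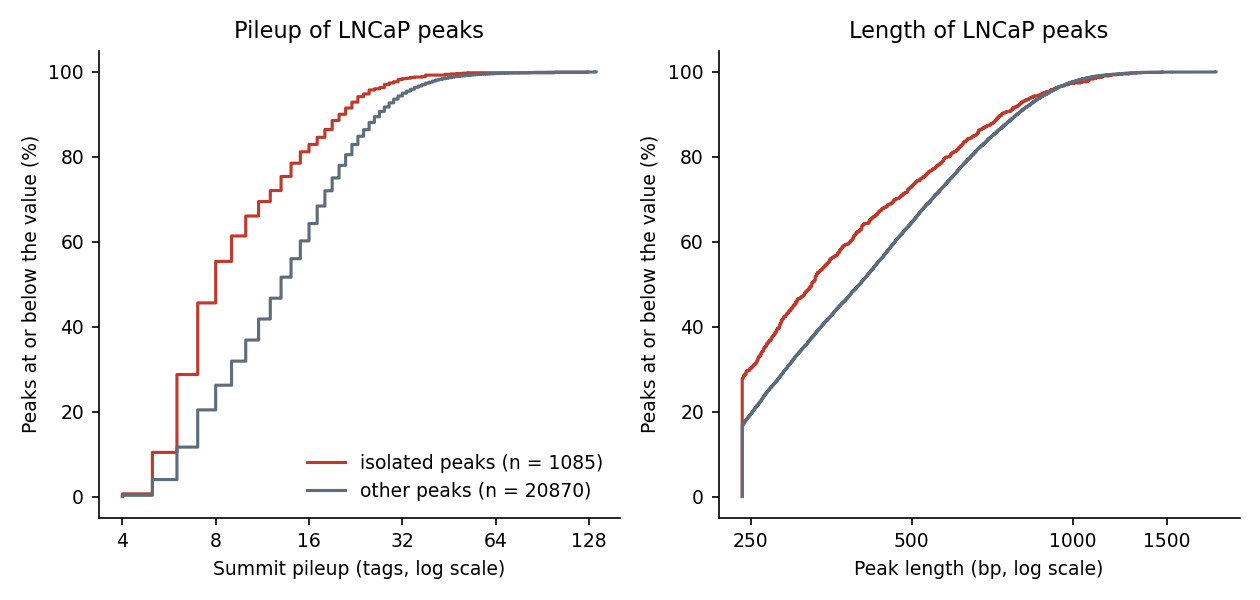
Cumulative share of LNCaP peaks in percent (vertical axes) against summit pileup in tags (left, log scale) and peak length in bp (right, log scale), for isolated peaks (red) and other peaks (grey). The isolated curve lies to the left, with medians of 8 tags and 325 bp in isolated against 13 tags and 400 bp in other peaks, and begins with a larger step at 241 bp.

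Fold enrichment, unlike pileup, was much the same in both sets. It is the authors' ratio of the pileup to the local background, each with 1 added, and had a median of 6.07 in isolated peaks (5.98 to 6.07, quartiles 5.23 and 7.55) and 5.98 in other peaks (5.97 to 6.04, quartiles 4.97 and 7.59). A fold of at least 10 was reached by 74 isolated peaks, 6.82% (5.39 to 8.49), 8.08% (7.72 to 8.46) of other peaks and 8.02% of all. The background under isolated peaks was lower. Computed back from fold and pileup, it came to a median of 20 tags in the 10 kb window of isolated peaks (quartiles 13.2 and 37), against 53 (27 and 81) for other peaks. Less the summit pileup, these window values had medians of 12 for isolated and 38 for other peaks. For peaks whose background was set at the mean over the genome, neither value is a count of tags. The window spans 10 kb in all, and 19.3% of other peaks had a neighbouring summit within 5 kb, which the rule excludes for isolated peaks. The median window held 52 tags in peaks 10 to 30 kb from the next summit and 31 tags at 100 to 200 kb. The part of neighbouring peaks in the background was not tested.

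The background of an isolated peak was often the lowest value that the peak caller uses, the mean over the genome, which corresponds to 13.2 tags per 10 kb in this library. It applied to 278 isolated peaks, 25.6% (23.05 to 28.3), against 4.94% (4.65 to 5.24) of other peaks and 5.96% of all. The authors' −log10 q had a median of 5.69 in isolated peaks and 6.63 in other peaks, and 60.4% (57.4 to 63.3) of isolated, 66.5% (65.9 to 67.2) of other and 66.2% of all peaks reached 5.

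Pileup and background changed in steps with the distance to the nearest summit, without a break at 200 kb. For peaks 10 to 30 kb from the next summit the median pileup was 13 tags, the median window held 52 tags and 16.7% of peaks had the shortest length. At 100 to 200 kb these values were 10 tags, 31 tags and 22.2%. At 200 to 500 kb, where 860 of the isolated peaks lay, they were 8 tags, 20 tags and 27.1%, and at 1 Mb or more 7 tags, 15 tags and 31.9%. The median fold stayed between 6.07 and 6.24 from 10 kb upwards.

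A smaller share of isolated than of other peaks had a counterpart in VCaP. Of 1085 isolated peaks, 195 were overlapped by a VCaP peak by at least 1 bp, or 18.0% (15.7 to 20.4). Of the other peaks 6439 of 20870 were, or 30.9% (30.2 to 31.5), and of all LNCaP peaks 30.2%. The isolated share was the lower on 22 of 23 chromosomes. When each peak had to cover 50% of the other, the shares were 9.40% (7.73 to 11.3) of isolated and 18.8% (18.2 to 19.3) of other peaks. Most isolated peaks were also far from any VCaP peak, since 723, or 66.6% (63.7 to 69.4), had no VCaP summit within 200 kb, against 15.8% (15.3 to 16.3) of other peaks and 18.3% of all. A further 167 isolated peaks, 15.4% (13.3 to 17.7), had a VCaP summit within 200 kb but were overlapped by no VCaP peak, against 53.4% (52.7 to 54.1) of other peaks and 51.5% of all.

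At like pileup the shares with a VCaP counterpart differed less, and in both directions. At 5 to 9 tags, 21 of 659 isolated peaks were overlapped, 3.19% (1.98 to 4.83), against 5.19% (4.66 to 5.75) of other peaks. At 10 to 14 tags, 27.4% (21.1 to 34.4) of isolated and 21.8% (20.7 to 22.99) of other peaks were overlapped. At 15 to 19 tags the shares were 40.4% (31.1 to 50.2) of isolated and 36.8% (35.3 to 38.3) of other peaks. Both sets thus had larger shares at each higher range. At 20 to 29 tags they were 57.3% (46.8 to 67.3) of isolated and 60.9% (59.3 to 62.5) of other peaks. At 30 tags or more, 24 of 28 isolated peaks were overlapped, 85.7% (67.3 to 96.0), against 84.9% (83.0 to 86.7) of other peaks. In each of these 5 ranges the intervals overlapped, at 5 to 9 tags only narrowly. The isolated share was the lower at 5 to 9 and at 20 to 29 tags and the higher in the other ranges. Such opposite differences offset each other in a weighted share. When the other peaks were weighted to have the pileups of the isolated peaks, their share became 17.5% ± 0.207 (SE), next to 18.0% for isolated peaks. With all peaks under 10 tags left out, 41.5% (36.8 to 46.4) of isolated and 42.9% (42.1 to 43.7) of other peaks were overlapped. The intervals are wide for the few tall isolated peaks, and differences within them were not detectable at this depth.

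**Figure D3:**
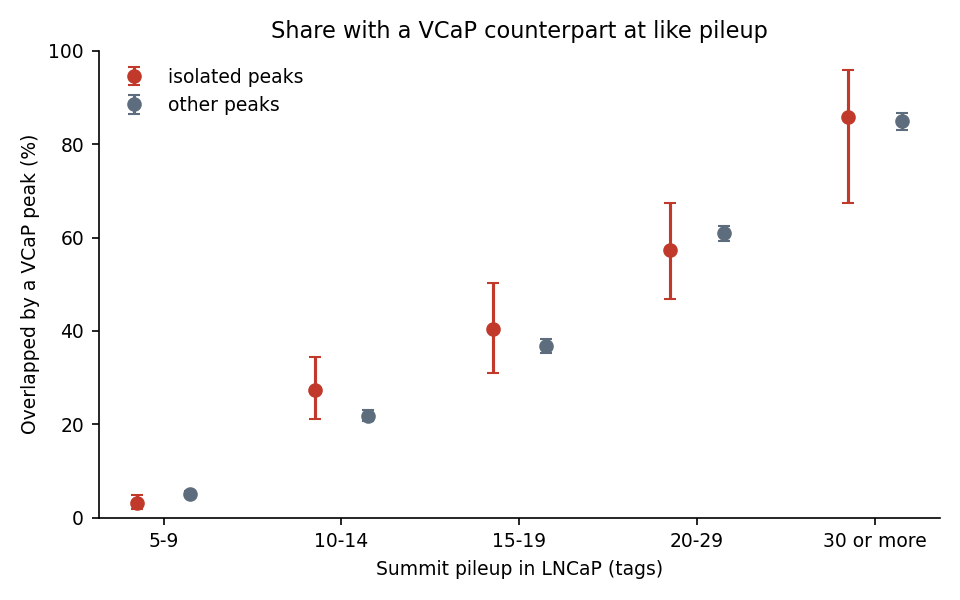
Share of LNCaP peaks overlapped by a VCaP peak in percent (vertical axis) by summit pileup in tags (horizontal axis), for isolated peaks (red, left of each pair) and other peaks (grey), with exact 95% binomial intervals. Both sets climb together, with 3.19% of isolated and 5.19% of other peaks at 5 to 9 tags, and 85.7% of isolated and 84.9% of other peaks at 30 tags or more.

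Matched on other properties the shares still differed, and not always in the same direction. Within each quintile of fold enrichment the isolated share was the lower, with 1.23% (0.150 to 4.39) against 11.1% (10.1 to 12.1) of other peaks in the lowest and 51.8% (44.6 to 58.9) against 66.4% (64.9 to 67.8) of other peaks in the highest. In these quintiles the isolated peaks also had the lower pileup, with medians of 5 tags against 8 in other peaks in the lowest and 20 tags against 25 in other peaks in the highest. Weighted to the lengths of the isolated peaks, the other peaks had a share of 25.5% ± 0.257 (SE), above the 18.0% of isolated peaks. Weighted to the window tags of the isolated peaks, the order turned round. The other peaks then had 14.1% ± 0.220 (SE), below the 17.9% of the 1084 isolated peaks that could be matched. Pileup, fold, length and window tags are tied to each other by the way peaks were called, and which of them goes with overlap on its own was not tested.

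As in the rest of the list, isolated peaks with a VCaP counterpart were taller and broader than those without one. The 195 overlapped isolated peaks had a median pileup of 18 tags (16 to 19) and a median length of 624 bp (596 to 681), against 7 tags (7 to 7) and 288 bp (279 to 300) in the 890 without a counterpart. In the other peaks the medians were 21 tags (20 to 21) and 579 bp (572 to 586) with a counterpart and 11 tags (10 to 11) and 328 bp (324 to 331) without. Of the 302 isolated peaks at the shortest length 2 were overlapped, 0.662% (0.0803 to 2.37), against 146 of 3508 other peaks of that length, 4.16% (3.53 to 4.88). With the background at the genome mean the shares were about alike, with 5 of 278 isolated peaks, 1.80% (0.587 to 4.15), and 14 of 1031 other peaks, 1.36% (0.744 to 2.27). Of 124 isolated peaks with at least 20 tags, 79 were overlapped and 45 were not. Among other peaks, 60.9% at 20 to 29 tags and 84.9% at 30 tags or more were overlapped, near the isolated shares of 57.3% and 85.7%. In 135 of the 195 pairs, 69.2% (62.2 to 75.6), the VCaP peak was itself 200 kb or more from every other VCaP summit. This held for 13.4% (12.5 to 14.2) of the pairs of other peaks and 16.1% of all VCaP peaks. Like other distances to VCaP summits, it is tied to the spacing rule and is a description. These 135 sites were isolated in both lines, with a median pileup, not scaled to depth, of 17 tags in LNCaP and 12 tags in VCaP.

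Within pairs the summits lay about equally close, and the fold was more often the higher in LNCaP at isolated peaks. The summits of the isolated pairs were a median of 70 bp apart (59 to 90), against 73 bp (71 to 76) in the pairs of other peaks. LNCaP had the higher fold in 173 of 195 isolated pairs, 88.7% (83.4 to 92.8), against 79.6% (78.6 to 80.5) of the other pairs. The median ratio of LNCaP over VCaP fold was 1.47 (1.42 to 1.53) at isolated and 1.30 (1.29 to 1.32) at other pairs. The LNCaP fold is formed in part from the LNCaP pileup. The ratio of the folds is therefore tied to that pileup and varied with it in both sets. At 4 to 9 tags it was 0.989 (0.931 to 1.19) at isolated and 0.938 (0.903 to 0.962) at other peaks, and LNCaP had the higher fold in 10 of 21 isolated pairs. Pairs with 10 to 14 LNCaP tags had a ratio of 1.42 (1.30 to 1.53) at isolated and 1.08 (1.06 to 1.10) at other peaks. At 15 to 19 tags it was 1.59 (1.46 to 1.63) at isolated and 1.27 (1.25 to 1.29) at other peaks, and at 20 to 29 tags 1.51 (1.46 to 1.73) at isolated and 1.41 (1.40 to 1.44) at other peaks. At 30 tags or more it was 1.66 (1.42 to 2.01) at isolated and 1.49 (1.46 to 1.52) at other peaks. The intervals of both sets thus overlapped in the lowest and the highest range and not in the 3 between them. At a given pileup the LNCaP fold is set by the LNCaP background alone. With or without a VCaP counterpart, peaks of 10 to 14 tags had a median LNCaP fold of 7.37 in isolated and 5.69 in other peaks. The part of the LNCaP background in these ratios was not tested.

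The summit pileup gave the opposite order from the fold. Scaled to 1000000 tags of each library, LNCaP over VCaP pileup had a median ratio of 3.08 (2.84 to 3.31) in isolated pairs and 3.34 (3.31 to 3.38) in other pairs, with intervals that touch. The scaled tags of the 10 kb windows differed more, with a median LNCaP over VCaP ratio of 1.68 (1.53 to 1.82) in isolated pairs and 2.37 (2.34 to 2.41) in other pairs. The higher fold ratio at isolated pairs thus stood beside a lower window ratio, and its part in the result was not tested. Across the 195 isolated pairs Spearman's rho between the lines was 0.28 for fold and 0.50 for pileup, and across the 6439 other pairs it was 0.36 for fold and 0.45 for pileup, as descriptions of pairs that share their libraries.

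**Figure D4:**
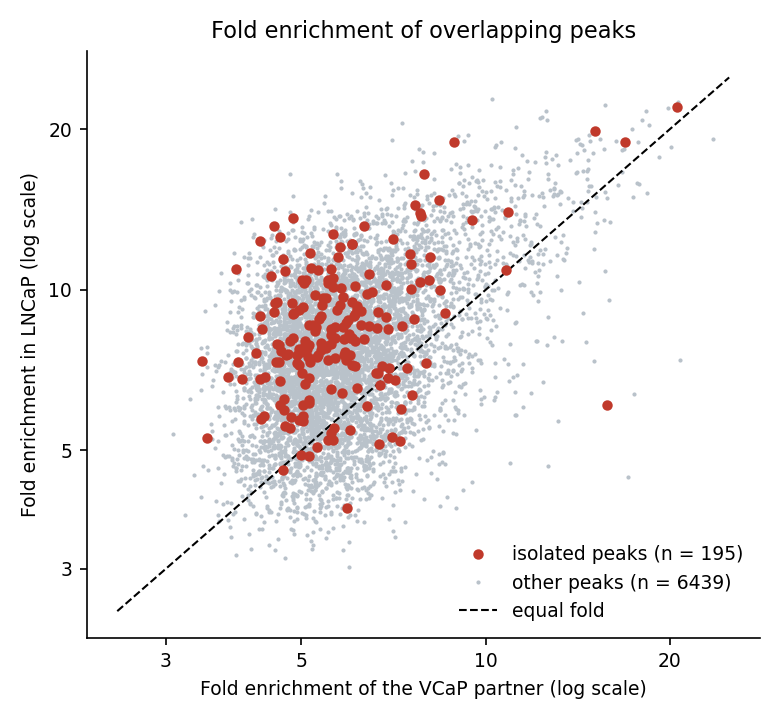
Fold enrichment in LNCaP (vertical axis, log scale) against that of the overlapping VCaP peak (horizontal axis, log scale) for the 195 isolated peaks (red) and the 6439 other peaks (pale grey), with equality dashed. Of the isolated pairs, 173 lie above the line.

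Some isolated peaks ranked among the tallest and most enriched of the list. Ranks up to 500 by pileup, ties included, held 8 isolated peaks of 510, 1.57% (0.680 to 3.07), and ranks up to 500 by fold held 19 of 500, 3.80% (2.30 to 5.87), against 4.94% in the whole list. The 12 isolated peaks of highest pileup had 38 to 127 tags and folds of 7.34 to 22.01, with ranks by fold from 4 to 6144. All 12 were overlapped by a VCaP peak. Of other peaks with 30 tags or more, a range that begins below the 38 tags of these 12, 84.9% were overlapped. Raw tags of the lines come from libraries of unequal depth, so pileups are also given per 1000000 tags of the library. The site chr2:174219252-174219778, 527 bp long, had 99 tags and a fold of 22.01 in LNCaP, rank 4 of the list, and 82 tags and a fold of 20.6 in VCaP, or 26.96 tags per 1000000 in LNCaP and 9.43 in VCaP. Its next LNCaP summits lay 278 kb before and 609 kb after it. The site chr7:4046364-4046735 had 50 tags (13.6 per 1000000) and a fold of 19.9 in LNCaP and 43 tags (4.95 per 1000000) and 15.1 in VCaP, with the nearest LNCaP summit 625 kb away. The site chrX:108297478-108297909 had 38 tags in each line, which is 10.35 per 1000000 in LNCaP and 4.37 in VCaP, with folds of 18.9 in LNCaP and 16.9 in VCaP.

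At other tall isolated peaks the fold was also higher in LNCaP than in VCaP, most of all at the sites named on chromosome 8. For all pairs with 30 LNCaP tags or more, the median ratio of LNCaP over VCaP fold was 1.66 at isolated and 1.49 at other peaks. On chromosome 8, chr8:105601133-105601685 had 52 tags (14.2 per 1000000) and a fold of 16.5 in LNCaP and 31 tags (3.57 per 1000000) and 7.93 in VCaP. Likewise, chr8:121457362-121457954 had 48 tags (13.1 per 1000000) and a fold of 18.9 in LNCaP and 30 tags (3.45 per 1000000) and 8.86 in VCaP. The broadest isolated peak, chr2:153574130-153575602 with 1473 bp, had 46 tags (12.5 per 1000000) and a fold of 10.7 in LNCaP and 25 tags (2.88 per 1000000) and 6.44 in VCaP. The remaining tall sites, chr5:137089957-137090919, chr12:32552048-32552732, chr22:24951223-24952227 and chr15:82338965-82339716, had 38 to 44 tags (10.35 to 11.98 per 1000000) and folds of 7.34 to 10.3 in LNCaP and 16 to 34 tags (1.84 to 3.91 per 1000000) and folds of 4.60 to 7.82 in VCaP. Nearly equal folds were found at chr10:16859156-16860002, with 10.9 in LNCaP and 10.8 in VCaP, and at chr6:11093665-11094600, with 9.04 in LNCaP and 8.57 in VCaP.

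A few isolated peaks bordered stretches without any peak. Both lists were called with no control library, so that Rb binding and signal from repeated sequence cannot be told apart at these sites. The peak of highest pileup, chr1:121484398-121485468, had 127 tags (34.6 per 1000000) and a fold of 13.5 in LNCaP and 259 tags (29.8 per 1000000) and 9.50 in VCaP, and the next LNCaP summit lay 21097 kb further on. The site chr19:27731972-27732285 had 44 tags (11.98 per 1000000) and a fold of 13.99 in LNCaP and 186 tags (21.4 per 1000000) and 10.9 in VCaP, after a gap of 3462 kb. The isolated peak with the lowest ratio of LNCaP over VCaP fold, named after its values were seen, was chrX:58561382-58561622, with 7 tags (1.91 per 1000000) and a fold of 6.07 in LNCaP and 40 tags (4.60 per 1000000) and 15.8 in VCaP, before a gap of 4010 kb. Stretches of 2.5 Mb or more that neither list has a peak in numbered 57, and 76 isolated peaks were no more than 1 Mb from one, or 7.005% (5.56 to 8.69), against 2.70% (2.48 to 2.93) of other peaks and 2.91% of all. Such a stretch is itself a gap of more than 200 kb, so this difference follows in part from the rule. Without these 76 the isolated share overlapped was 17.6% (15.3 to 20.1), and the median pileup was 8 tags as before.

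Isolated peaks of high fold without a VCaP counterpart also occurred. The highest, chr14:83108722-83109105, had 34 tags and a fold of 18.99, rank 27 of the list, and the nearest VCaP summit lay 255 kb away. It was followed by chr8:13424112-13424530 with 24 tags and 14.5, chr14:88237565-88237922 with 21 tags and 13.9, chr2:235405202-235405758 with 26 tags and 11.7, and chr12:29533608-29534163 with 20 tags and 11.7. Their nearest VCaP summits were 530 to 1103 kb away. The broadest isolated peaks after that on chromosome 2 included unshared sites too. Of these, chr7:106300370-106301712 (1343 bp, 19 tags) and chr7:20369450-20370722 (1273 bp, 17 tags) had no VCaP counterpart, while chr14:66974352-66975665 (1314 bp, 33 tags) and chr3:105587143-105588423 (1281 bp, 18 tags) had one.

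The 5 loneliest peaks had pileups of 5 to 14 tags, on both sides of the median of 8 tags in all isolated peaks. The farthest from any other LNCaP summit was chrX:90689624-90690155, at 5250 kb, with 14 tags and a fold of 9.65, and its nearest VCaP summit was also 5250 kb away. Its neighbour chrX:95939535-95939937, at 4047 kb, had 12 tags (3.27 per 1000000) and a fold of 7.88 in LNCaP and 9 tags (1.04 per 1000000) and 5.14 in VCaP, with summits 107 bp apart. The next were chr16:62069360-62069600 with 5 tags and a fold of 4.18 at 3086 kb, and chrX:80377143-80377431 with 11 tags and 8.97 at 2982 kb. They were followed by chr4:31982898-31983138 with 7 tags and 6.07 at 1794 kb, and none of them had a VCaP counterpart.

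The share of isolated peaks differed widely between chromosomes. On chromosome X, 72 of 462 LNCaP peaks were isolated, or 15.6% (12.4 to 19.2). Chromosome 4 followed with 97 of 865, 11.2% (9.19 to 13.5), chromosome 13 with 35 of 377, 9.28% (6.55 to 12.7), chromosome 2 with 112 of 1258, 8.90% (7.39 to 10.6), and chromosome 18 with 36 of 444, 8.11% (5.74 to 11.0). At the low end stood chromosome 19 with 6 of 1160, 0.517% (0.190 to 1.12), chromosome 17 with 11 of 1222, 0.900% (0.450 to 1.60), chromosome 22 with 7 of 431, 1.62% (0.655 to 3.32), and chromosome 16 with 15 of 828, 1.81% (1.02 to 2.97). The shares followed the density of peaks, which the rule itself depends on: chromosome X had 2.98 and chromosome 19 had 19.7 LNCaP peaks per Mb between its first and last summit, and Spearman's rho of density and share isolated was -0.94 across the 23 chromosomes.

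**Figure D5:**
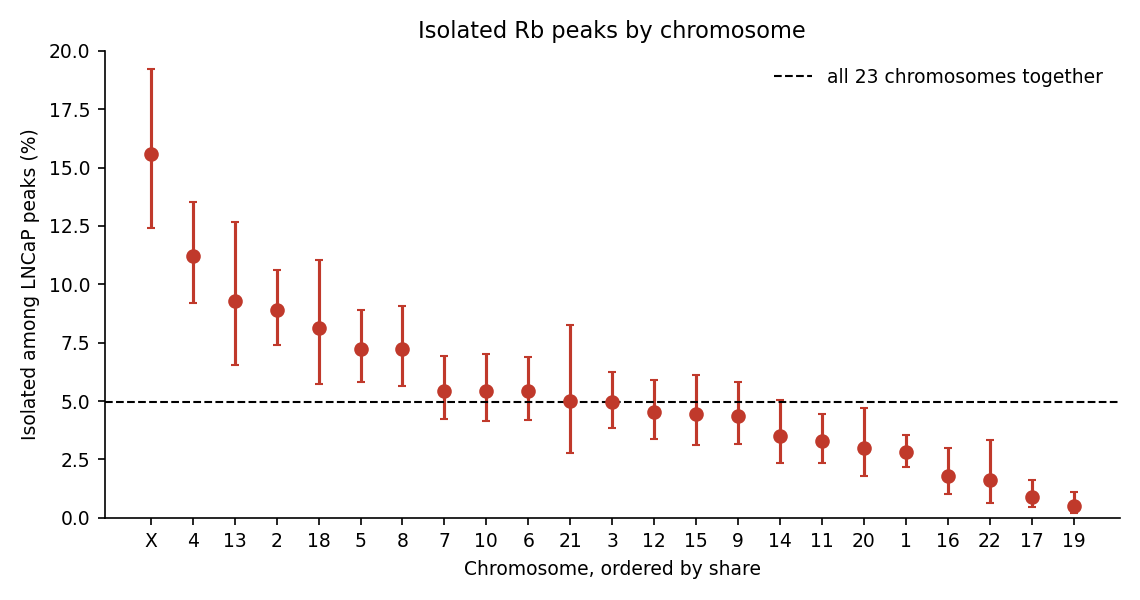
Share of LNCaP peaks that were isolated in percent (vertical axis) for each chromosome (horizontal axis, ordered by share), with exact 95% binomial intervals and the share over all chromosomes, 4.94%, dashed. Chromosome X is highest at 15.6% and chromosome 19 lowest at 0.517%.

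Counted per length of chromosome, isolated peaks were spread more evenly. There were 5.08 isolated peaks per 10 Mb on chromosome 4, 4.65 on chromosomes 8 and X, 4.62 on chromosome 18 and 4.61 on chromosome 2, against 1.36 on chromosome 17 and 1.02 on chromosome 19. At least 1 isolated peak fell in 279 of the 309 bins of 10 Mb that held any LNCaP peak. The bin with most, from 30 to 40 Mb on chromosome 2, had 11 isolated among 45 peaks, with a median pileup of 14 tags in the isolated ones.

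The VCaP counterparts of isolated peaks were also unevenly spread over the chromosomes. On chromosome 2, 35 of 112 isolated peaks were overlapped, 31.2% (22.8 to 40.7), close to the 33.3% of its other peaks, and their median pileup was 10 tags. On chromosome X the shares were 20.8% (12.2 to 32.02) of isolated and 20.3% of other peaks, the only chromosome with the higher share in isolated peaks. On chromosome 5, 7 of 83 isolated peaks were overlapped, 8.43% (3.46 to 16.6), against 26.9% of its other peaks, and on chromosome 10 5 of 56, 8.93% (2.96 to 19.6), against 22.7%. None of the 15 isolated peaks of chromosome 16 and none of the 11 of chromosome 17 was overlapped, counts of 0 whose exact intervals reach 21.8% and 28.5%. Both lines are aneuploid, and the part of DNA copy number in these shares was not tested.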

How the data were processed

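Rb ChIP-seq was deposited for 1 library each of LNCaP and VCaP, each tied to its line by the labels. The authors ran the peak caller MACS on each library alone, per the file headers, in version 2.1.0.20140616, with no control library, a q-value limit of 0.05, 1 tag per position and a background window of 10000 bp. The submitters' processing notes name hg19, MACS2 and HOMER; the aligner is not given in the sources used here. The deposited pileup is a coverage signal that is not scaled to depth, the deposited fold enrichment is a ratio formed by the authors' peak caller, and the deposited significance is −log10 q. All scores are the authors'. Coordinates count from 1 in hg19.

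Isolation, overlap, exact Clopper-Pearson 95% intervals, order-statistic intervals of medians, and weighted shares were computed with Python 3.11.15, pandas 2.3.3 and scipy 1.17.1. Isolation and overlap were checked on simulated peaks, and the intervals of medians on simulated counts. The exact intervals and the weighted shares were not checked in this way. Where several VCaP peaks overlapped, that of highest fold was taken. Named peaks are the 12 of highest pileup, the 5 farthest, the 3 on each side of the limit, the 8 best shared by the smaller fold, the 5 of highest fold without overlap and the 5 broadest. The members and settings were chosen with earlier results of these data known. Nearest genes, gene lists and sequence at the peaks were not analysed here.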

Additional observations from a re-analysis of the deposited data

Results flagged for a closer look

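Chromosome Y was outside the comparisons and also held peaks. The LNCaP list had 35 peaks there, with a median pileup of 12 tags and at most 59, of which 9 lay 200 kb or more from every other summit on the chromosome. They were singled out because the comparisons did not use them.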

How the results depend on the processing

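Isolated peaks had the lower share overlapped by VCaP in all 12 settings that gave both shares, the reported one included, with overlapping intervals at a limit of 1 Mb and where peaks under 10 tags were left out. With the limit at 100 kb there were 2988 isolated peaks, 23.3% overlapped, with medians of 9 tags and 359 bp. At 500 kb there were 225, with 7 tags, and at 1 Mb 47, with 7 tags and 289 bp. With −log10 q of at least 5 required in both the LNCaP and the VCaP list, and isolation recomputed, 27.9% of other peaks were overlapped. The medians were 13 tags and 461 bp in isolated and 17 tags and 501 bp in other peaks. The limit also applied to VCaP peaks, so such shares do not reflect the choice of LNCaP peaks alone. With the same limit in both lists and isolation from the full list, the shares were 15.6% of isolated and 27.5% of other peaks. The medians were 11 tags and 428 bp in isolated against 17 tags and 501 bp in other peaks. With a fold of at least 5 in both lists and isolation recomputed, 29.01% of other peaks were overlapped. The medians were 10 tags and 380.5 bp in isolated against 15 tags and 463 bp in other peaks. Reciprocal overlap of 50% gave 9.40% of isolated and 18.8% of other peaks, summits within 200 bp gave 14.6% of isolated and 25.8% of other peaks, and a gap of up to 1 kb gave 34.6% of other peaks. A pair of settings, which limited the LNCaP list only, was chosen after seeing the data. With peaks of at least 10 tags the isolated had 41.5%, 15 tags and 569 bp, and the other 42.9%, 17 tags and 501 bp. With peaks longer than 241 bp the isolated had 24.6%, 10 tags and 406 bp, and the other 36.2%, 15 tags and 454 bp. With at least 10 tags the order of the lengths turned round. The cause was not tested. Counting VCaP summits as neighbours, or leaving out peaks near empty intervals, moved no value beyond its interval and no count by more than 1.5 times. No paired analysis was possible because each line has 1 library.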

Other observations

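The same distance applied to the VCaP list gave isolated peaks that differed from the rest of that list in the same direction as in LNCaP, by less. Of 9393 VCaP peaks 1511, or 16.1% (15.3 to 16.8), lay 200 kb or more from every other VCaP summit. Their median pileup was 12 tags, against 13 in the other VCaP peaks, and their median length 291 bp (285 to 299) against 318 bp (314 to 322). Their 10 kb windows held a median of 59 tags (58 to 60), against 69 (69 to 70) in the other VCaP peaks. An LNCaP peak overlapped 65.2% (62.7 to 67.6) of them, against 72.4% (71.4 to 73.3) of the other VCaP peaks, and in 135 cases that LNCaP peak was isolated too. The genome mean background is 31.2 tags per 10 kb in the VCaP library and 13.2 in the LNCaP library.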
